A study of Mus musculus with 2 samples.

Results

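The genes described here encode plasma proteins of the complement, coagulation and fibrinolysis cascades, most of them made and secreted by hepatocytes. Of 39 such genes on the list, 36 had at least 1 probe set annotated to that gene alone, matched by Entrez gene ID, with 49 probe sets in all among the 18194 genes and 45101 probe sets of the array. C3, Cfd and Cpb2 were not analysed here. Total RNA from livers of 12-week-old male mice, fed a chow diet and fasted for 6 hr, was hybridized to Affymetrix Mouse Genome 430 2.0 arrays. Both groups carried homozygous floxed Lpcat3 alleles (Lpcat3fl/fl), with loxP sites on either side of exon 3. Flox/Flox mice had no Cre, and L-Lpcat3 KO mice (Lpcat3fl/fl Albumin-Cre) also carried an albumin-Cre transgene, whose promoter is active in hepatocytes, so other liver cells kept the intact gene. RNA of 5 mice was pooled per genotype, which gave 1 array per group. Without replicates, each ratio rests on 1 pair of arrays and carries no error from mouse to mouse, no test was run, and effects of Cre itself and of the loss of Lpcat3 cannot be told apart. In liver RNA, fewer cells of a type and less RNA per cell cannot be told apart either.

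Complement is a set of plasma proteins, many of them proteases, that mark and puncture microbes. It can be started by C1 on antibody (the classical pathway), by mannose-binding lectins on sugars (the lectin pathway) or on C3 itself (the alternative pathway), and it ends in a pore built of the terminal components. Coagulation is a parallel chain of proteases that ends when thrombin cuts fibrinogen into fibrin, and plasmin later dissolves the clot. Most of these proteins come from hepatocytes, and several, among them the fibrinogen chains, factor B and C9, are made in larger amounts during the acute phase of inflammation.

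Lpcat3, the targeted gene, had a signal of 3310.0 in Flox/Flox against 1305 in L-Lpcat3 KO, although the probe set may read RNA outside the deleted exon. The hepatocyte identity of the tissue was plain, with all 5 measured hepatocyte markers, among them Alb (37859 in Flox/Flox against 39856 in L-Lpcat3 KO), in the top 1% of probe sets by mean signal. Signals are MAS5 values, which summarise the matched and mismatched probes of each probe set after background correction and are given on a linear scale. The log2 value of Flox/Flox was subtracted from that of L-Lpcat3 KO to give each ratio, so a ratio below 0 means a lower signal in L-Lpcat3 KO. The value of a gene is that of its brightest probe set, and signals below the median of the array (76.4) were raised to that floor. All 36 genes lay above the floor in both pools.

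No complement or coagulation gene differed by 1.5-fold between the pools, but nearly all were slightly lower in L-Lpcat3 KO. Among the 36, 32 had a ratio below 0 and 4 above, and the median log2 ratio was -0.08. Among all 12084 measured genes, 49.3% had a ratio below 0, the median was 0.00, 3.19% were at least 1.5-fold lower and 4.04% at least 1.5-fold higher (7.23% in either direction). The lowest ratio was that of C2 (-0.48, 1.40-fold lower) and the highest that of the clotting protease F7 (0.29, 1.22-fold higher). The 16 complement genes had a median of -0.09 with 15 ratios below 0, and the 20 coagulation and fibrinolysis genes had a median of -0.07 with 17 below 0. Hepatocyte markers had a median of -0.05 over 5 genes and a summed signal of 203298 in Flox/Flox against 200486 in L-Lpcat3 KO. This was close to the median of -0.04 of 266 other genes in the top 1%, where all 5 lay. Alb was above 0 (0.07) and the other 4 below. The other probe sets of Apoa1 gave 0.01 to 0.07 and those of Ttr -0.19 to 0.17, so the direction depends on the probe set.

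**Figure D1:**
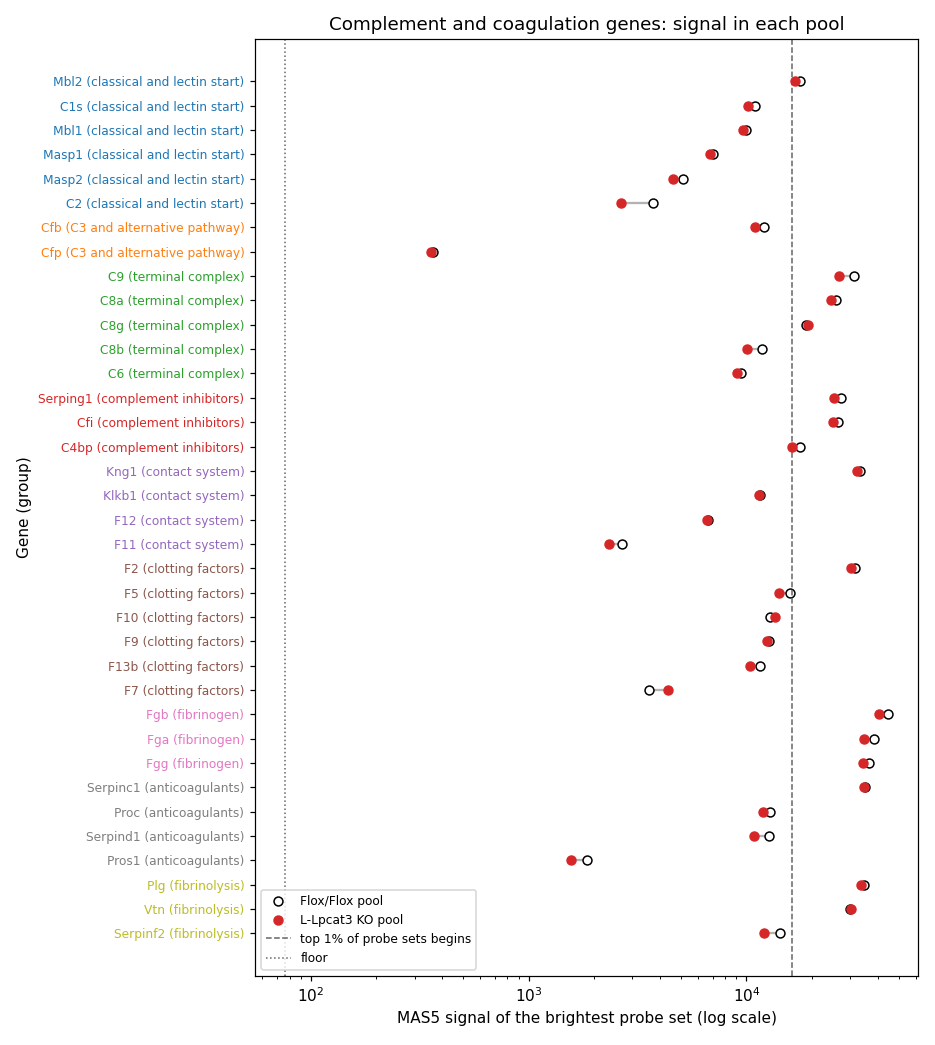
Signal of the brightest probe set (x axis, MAS5 units, log scale) of 36 complement and coagulation genes (y axis, coloured by group) in the Flox/Flox pool (open points) and the L-Lpcat3 KO pool (red points); the dashed line marks where the top 1% of probe sets begins (16209) and the dotted line the floor (76.4). Both points of most genes nearly coincide, C2 and F7 are the furthest apart, and Cfp is the 1 gene outside the top 10% of probe sets.

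These genes are among the brightest on the array, which bears on how small ratios can be read. By the mean signal of both pools, 15 of the 36 were in the top 1% of probe sets (above 16209), and 35 in the top 10% (above 1617). Bright genes in general differed little. Of 2705 other genes between the 90th and 99th percentiles, 1.15% were at least 1.5-fold apart and 49.4% had a ratio below 0, with a median of 0.00. The 266 other genes in the top 1% were themselves slightly low, with 65% of ratios below 0, 0.752% at least 1.5-fold apart, a median of -0.04 and a narrower spread (SD across genes 0.143, against 0.184 for the 2705). Against this background, the 15 complement and coagulation genes in the top 1% had a median of -0.08 with 13 ratios below 0, and the 21 dimmer ones a median of -0.11 with 19 below 0. The central 90% of other genes in the same range of signal ran from -0.25 to 0.25 below the top 1% and from -0.23 to 0.15 within it. By construction, 10% of the other genes lie outside these ranges. C2 and C9 lay under them, C9 only just (-0.2313 against a bound of -0.2303), and F7 lay over them. The other 33 lay inside, Pros1 only just (-0.2512 against a bound of -0.2519). Cfp, also inside, was set against genes below the 90th percentile. Whether signals level off near the top of the range was not tested.

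**Figure D2:**
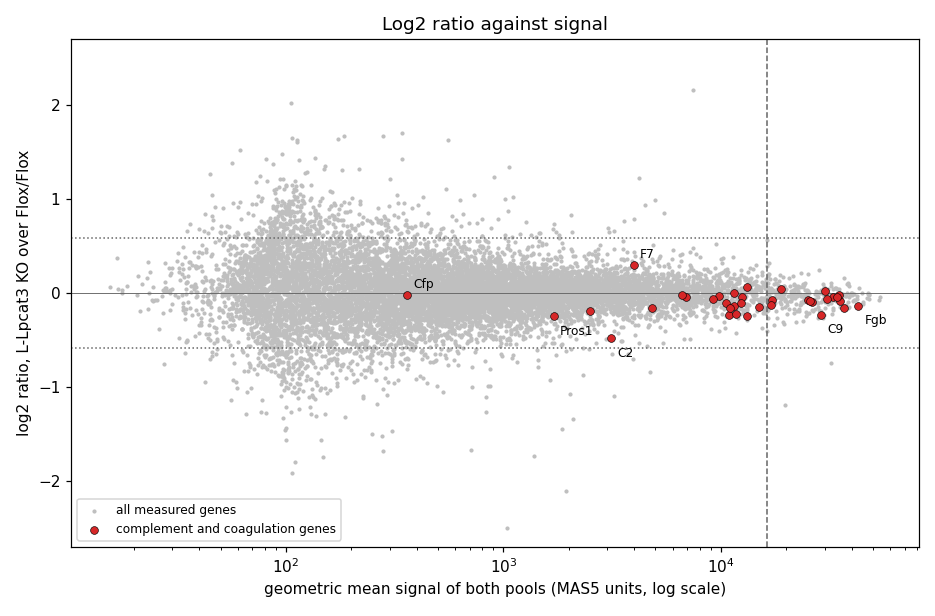
Log2 ratio between the pools, KO over Flox/Flox (y axis), by mean signal (x axis, geometric mean of the pools in MAS5 units, log scale), with 12084 measured genes in grey and the 36 complement and coagulation genes in red; dotted lines mark 1.5-fold and the dashed line where the top 1% of probe sets begins (16209). The red points cluster at the bright end, mostly just below 0, with C2 (-0.48) lowest and F7 (0.29) highest.

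The scaling of the arrays moved these small differences, and with them the share of ratios below 0 among other bright genes. Quantile normalization gave 28 ratios below 0 of 36 and a median of -0.043. Loess, which removes the trend of ratios with signal, gave 30 and -0.058, and centring each array on its median gave 35 and -0.16. Klkb1, Kng1, Plg and Serpinc1 turned above 0 with quantile normalization, Klkb1 and Serpinc1 did so with loess, C8g, F10 and Vtn turned below 0 with centring, and no other gene of the 36 crossed 0 under these 3 scalings. In the top 1%, quantile normalization put 10 of 15 complement and coagulation genes below 0, against 46.6% of the 266 other genes. Loess put 12 of 15 below 0, against 52.6%, and centring 15 of 15, against 87.6%. Between the 90th and 99th percentiles the counts were 17, 17 and 19 of 20, in that order, against 48.3%, 48.0% and 71.3% of the 2705 other genes. Centring subtracts the same amount from each ratio above the floor, which alone adds to its counts below 0. Centring also moved the median of all genes to -0.074 and the share of higher genes among those 1.5-fold apart from 55.8% to 40.9%.

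**Figure D3:**
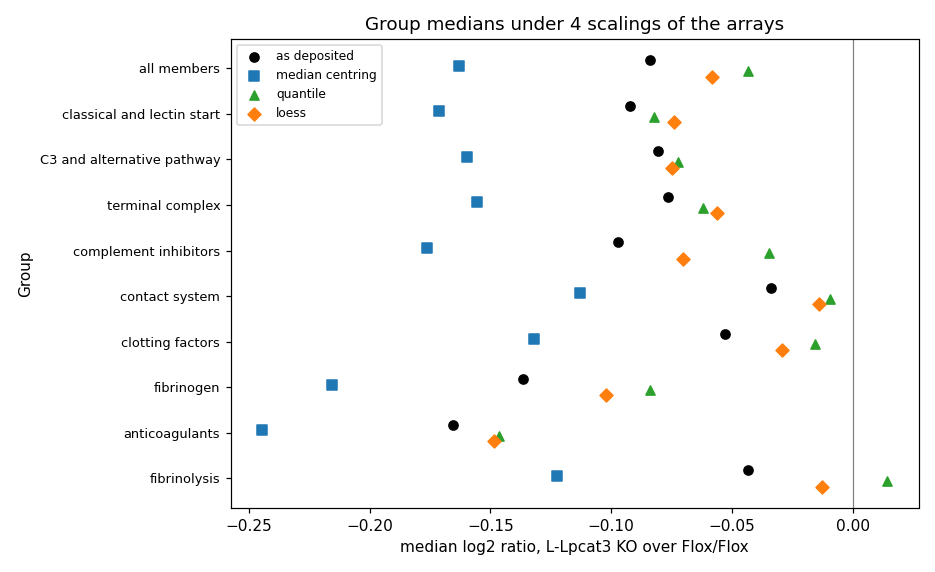
Median log2 ratio between the pools, KO over Flox/Flox (x axis), for all 36 genes and for each of 9 groups (y axis) with signals as deposited and after 3 other scalings of the arrays. Anticoagulants (-0.17) and fibrinogen (-0.14) have the lowest medians as deposited, and the fibrinolysis median turns to 0.014 after quantile normalization.

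The promoters of 4 genes are shown before the values of single genes. The 3 fibrinogen chains were chosen because their genes are neighbours and all had ratios below 0, as did 32 of the 36 genes. F7 was chosen because it had the highest ratio. Each stretch is the 250 bases before the transcription start, on the strand of the gene, from the RefSeq annotation of GRCm38.p6. Fga lies at chr3:83025903-83026152 (plus strand), Fgb at chr3:83049864-83050113 (minus strand), Fgg at chr3:83007474-83007723 (plus strand) and F7 at chr8:13025784-13026033 (plus strand). Capitals mark matches, on either strand, to 4 motifs of liver and acute-phase factors, none of which overlapped another here. They were the HNF1 half-site GTTAAT, the C/EBP pattern TTGCNNAA, the IL-6 response element CTGGGA and the HNF4 pattern CAAAGNCCA.
Fga: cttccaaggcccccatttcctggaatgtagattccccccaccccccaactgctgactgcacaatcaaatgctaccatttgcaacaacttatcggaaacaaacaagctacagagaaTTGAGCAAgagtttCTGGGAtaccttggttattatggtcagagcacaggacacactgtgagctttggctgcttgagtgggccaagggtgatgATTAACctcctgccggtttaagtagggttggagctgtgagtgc
Fgb: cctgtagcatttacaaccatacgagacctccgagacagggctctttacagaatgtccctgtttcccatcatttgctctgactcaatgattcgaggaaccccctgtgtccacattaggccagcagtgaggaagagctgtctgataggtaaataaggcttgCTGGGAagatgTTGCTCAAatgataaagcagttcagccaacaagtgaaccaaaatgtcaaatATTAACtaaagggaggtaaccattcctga
Fgg: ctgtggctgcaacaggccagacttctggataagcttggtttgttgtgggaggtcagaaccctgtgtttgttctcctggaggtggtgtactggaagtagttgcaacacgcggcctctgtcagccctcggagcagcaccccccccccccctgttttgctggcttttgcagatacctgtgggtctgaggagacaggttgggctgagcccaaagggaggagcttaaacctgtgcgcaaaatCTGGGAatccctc
F7: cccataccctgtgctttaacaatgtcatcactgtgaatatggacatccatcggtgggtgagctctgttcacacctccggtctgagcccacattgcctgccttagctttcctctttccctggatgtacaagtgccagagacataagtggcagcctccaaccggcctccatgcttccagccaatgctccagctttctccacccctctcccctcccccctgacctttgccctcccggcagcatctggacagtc
Fga and Fgb each held 1 match to HNF1, C/EBP and the IL-6 response element. Fgg held 1 to the IL-6 response element, and F7 held none of these letters. The other genes with ratios above 0 did hold matches, Vtn to HNF1, F10 to the IL-6 response element and C8g to HNF4. Whether matches bear on the ratios was not tested. In Fga the HNF1 match began 43 bases before the start and in Fgb 29 bases before it. Of 28 complement and coagulation genes in the promoter table, 8 held the HNF1 letters (28.6%, against 7.49% of 27025 genes), 7 the C/EBP letters (25%, against 10.8%), 13 the IL-6 response letters (46.4%, against 29.8%) and 2 the HNF4 letters (7.14%, against 1.96%). The rest of the 36, C2 among them, had no entry there. These shares are set against all genes with a promoter entry and not against genes of like signal. A match is a description of the letters and not of a bound site.

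In the values that follow, paired signals are those of Flox/Flox first and L-Lpcat3 KO second. Among the genes that start the classical and lectin pathways, all 6 had ratios below 0, with a median of -0.09. C2, which C1 and the lectin proteases cleave to form a C3 convertase, had a signal of 3709.7 in Flox/Flox against 2656 in L-Lpcat3 KO (log2 ratio -0.48). Its 2 other probe sets had signals of 3461 and 2785 (log2 ratio -0.31) and 3570.3 and 2434 (log2 ratio -0.55), so all 3 were lower in L-Lpcat3 KO. The IDs of the first and the last end in _x_at, which marks probes that may also bind other transcripts, and the probe set without that mark gave the smallest difference. Of the 2705 other genes in its range of signal, 1.11% had a lower ratio than C2. The mannose-binding lectins differed less. Mbl2 had signals of 17586 and 16738 (log2 ratio -0.07) and Mbl1 9944 and 9699 (log2 ratio -0.04). C1s, the protease of C1, carries the current symbol C1s1 and had signals of 10989.6 and 10161 (log2 ratio -0.11), read by a probe set whose ID ends in _s_at, which marks probes shared by several transcripts. Masp2, the protease that cleaves C4 and C2 once a lectin has bound, had signals of 5119 and 4586 (log2 ratio -0.16), with -0.08 in its other probe set. Masp1, its partner protease, had -0.04 as its log2 ratio at the brightest probe set, and the 3 others above the floor gave -0.33, -0.17 and, at dim signals (168 and 300.0), 0.84. The last was the 1 probe set of 48 above the floor on both arrays that was at least 1.5-fold apart.

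**Figure D4:**
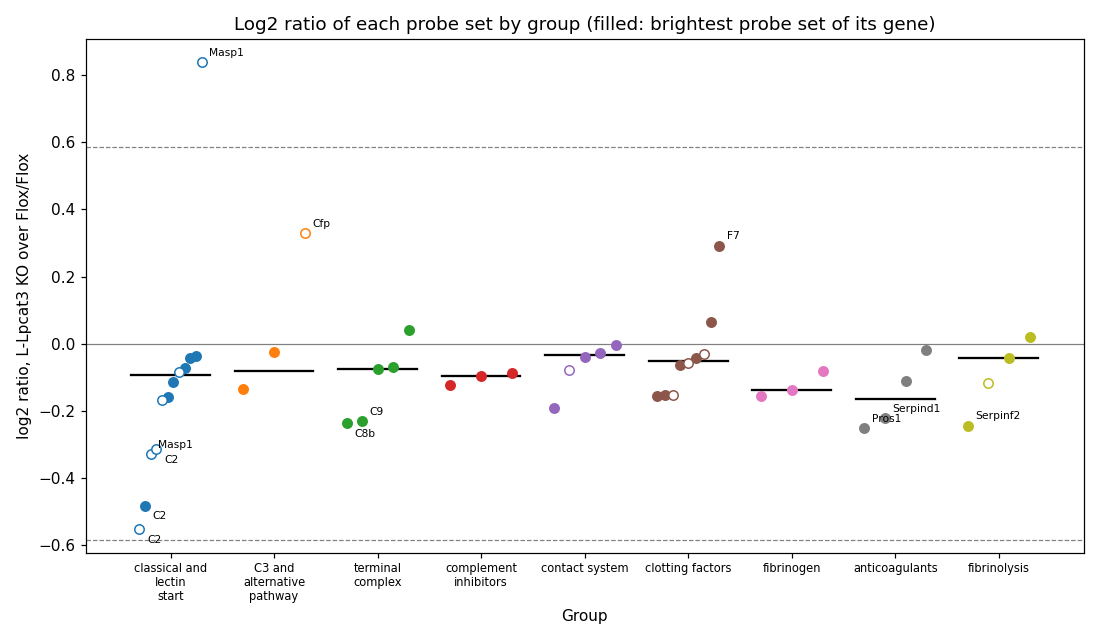
Log2 ratio between the pools, KO over Flox/Flox (y axis), of 48 probe sets that passed the floor in each pool, by group of their gene (x axis); filled points are the brightest probe set of a gene, open points its others, black bars the median of the filled points, and dashed lines mark 1.5-fold. All 3 probe sets of C2 lie between -0.31 and -0.55, and the open point at 0.84 is a dim probe set of Masp1.

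In the alternative pathway 2 genes were measured. Cfb encodes factor B, the protease of the alternative C3 convertase, and lies next to C2 in the genome. Its signals were 12022 and 10947 (log2 ratio -0.14), a smaller difference than that of C2. Cfp encodes properdin, which stabilises this convertase and is made mainly by leukocytes, and it was the 1 gene of the 36 outside the top 10%, with 363 and 356 (log2 ratio -0.03), and its second probe set had a log2 ratio of 0.33.

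The terminal components were uneven. C9, which polymerises into the pore, had signals of 31322 and 26683 (log2 ratio -0.23), and 4.89% of the 266 other genes in the top 1% had a lower ratio. C8 is built of alpha, beta and gamma chains from separate genes. The beta chain C8b had signals of 11801 and 10024 (log2 ratio -0.24), whereas its neighbour C8a had signals of 25898 and 24557 (log2 ratio -0.08) and C8g had signals of 18719 and 19269 (log2 ratio 0.04). In fold terms, C8b was 1.18-fold lower, C8a 1.05-fold lower and C8g 1.03-fold higher. C6 had signals of 9463 and 9017 (log2 ratio -0.07).

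Each of the 3 complement inhibitors was slightly lower, and each was in the top 1%. C4bp, the binding protein of C4b, had signals of 17686 and 16228 (log2 ratio -0.12). Serping1, the C1 inhibitor, which also restrains the contact proteases, had signals of 27067 and 25303 (log2 ratio -0.10), and Cfi, the protease that inactivates C3b, had signals of 26458 and 24913 (log2 ratio -0.09).

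The contact system had the median nearest to 0 with signals as deposited, -0.03 over 4 genes. Klkb1 (prekallikrein) had nearly equal signals of 11519 and 11484 (log2 ratio 0.00), as did F12 with 6685 and 6561 (log2 ratio -0.03). Kng1, the kininogen that carries bradykinin, had signals of 33216 and 32295 (log2 ratio -0.04) and -0.08 in its other probe set. F11, a neighbour of Klkb1, had signals of 2677 and 2344 (log2 ratio -0.19).

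Clotting factors ran in both directions. F7, which starts clotting together with tissue factor, had signals of 3585 and 4389 (log2 ratio 0.29), by 1 probe set. Of 2705 other genes in its range of signal, 3.48% had a higher ratio. Its neighbour F10, the protease that factor VII activates, had signals of 12889.7 and 13489.8 (log2 ratio 0.07), while its 2 other probe sets gave -0.15 and -0.06. Prothrombin, F2, had signals of 31450.2 and 30083 (log2 ratio -0.06) and F9 12745 and 12382 (log2 ratio -0.04). F5, the cofactor of factor X, had signals of 15775 and 14179.6 (log2 ratio -0.15), with -0.03 in its other probe set, and F13b, the carrier chain of the enzyme that cross-links fibrin, had signals of 11604 and 10408 (log2 ratio -0.16). F2, F7, F9, F10, Proc and Pros1 all encode proteins that need vitamin K for carboxylation. By the brightest probe set their ratios spanned -0.25 (Pros1) to 0.29 (F7), with F2, F9, Proc and Pros1 below 0 and F7 and F10 above it. Whether the trait bears on these RNA signals was not tested.

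All 3 fibrinogen chains were lower, with a median of -0.14, at signals close to the top of the range. Fga had signals of 38678 and 34686 (log2 ratio -0.16), Fgb 44851 and 40800.5 (log2 ratio -0.14) and Fgg 36418 and 34419.7 (log2 ratio -0.08). Of the 266 other genes in the top 1%, 14.3% had a lower ratio than Fga, 16.5% than Fgb and 32.3% than Fgg. The highest signal on the Flox/Flox array was 60906 and that on the L-Lpcat3 KO array 55070. Each was taken over all probe sets of its array, so they need not come from the same probe set.

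Anticoagulants had the lowest median of the 9 groups as deposited (-0.17), with 4 of 4 ratios below 0. Pros1 encodes protein S, the cofactor of activated protein C, and had signals of 1863 and 1565 (log2 ratio -0.25). Serpind1, heparin cofactor II, had signals of 12679 and 10881 (log2 ratio -0.22), and Proc, protein C, had signals of 12823 and 11880.2 (log2 ratio -0.11). Serpinc1, antithrombin, was nearly equal at 35187 and 34725 (log2 ratio -0.02).

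In fibrinolysis, the plasmin inhibitor Serpinf2 had a lower ratio than plasminogen, and both ratios lay within the central 90% of other genes of like signal. Serpinf2 had signals of 14304 and 12079.6 (log2 ratio -0.24) and Plg 34736 and 33702 (log2 ratio -0.04). Vtn, vitronectin, which binds the terminal complement complex and the inhibitor of plasminogen activators, had signals of 29905 and 30331 (log2 ratio 0.02), and its other probe set 30099 and 27769 (log2 ratio -0.12), so its direction depends on the probe set.

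Probe sets of the same gene give the only repeated measure here, and they read the same RNA. Of 8 genes with several probe sets above the floor, all probe sets pointed the same way in 4 (Masp2, C2, Kng1 and F5) and opposite ways in 4 (Masp1, Cfp, F10 and Vtn). Over all 48 probe sets, 42 had a ratio below 0, a count that holds some genes more than once. By 1 value per gene, 49.3% of all measured genes and 65% of the 266 other genes in the top 1% were below 0.

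Other genes of the same pathways were taken from lists. Among 17 measured complement genes outside the 36, 10 had ratios below 0, against 49.3% of all measured genes, and the median was -0.04. Of the 17, 1 was at least 1.5-fold lower and none higher, against 3.19% and 4.04% of all measured genes. That 1 gene was Cd46, a membrane inhibitor of complement, dim in both pools (signals 126 and 80.5, log2 ratio -0.65). Of genes that hepatocytes make, Hc, the gene of C5, stood at 24264 and 21516 (log2 ratio -0.17) and the inhibitor Clu, also bright, at 36082 and 34974 (log2 ratio -0.04). The chains of C1q, which liver macrophages make, also had ratios below 0 by the brightest probe set, that of C1qc close to that of Hc. C1qa had signals of 939.8 and 699.5 (log2 ratio -0.43), C1qb had signals of 1097 and 859 (log2 ratio -0.35) and C1qc had signals of 953 and 842 (log2 ratio -0.18). The other probe sets of C1qb gave log2 ratios of -0.43 and 0.16. Markers of Kupffer cells and macrophages were also lower in 8 of 8, with a summed signal of 9462 in Flox/Flox against 8442 in L-Lpcat3 KO, and their part in the C1q values was not tested.

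Among 18 measured coagulation and fibrinolysis genes outside the 36, 10 had ratios below 0, against 49.3% of all measured genes, and the median was -0.02. None of the 18 was 1.5-fold apart, against 7.23% of all measured genes. The 2 brightest were Pzp, a protease inhibitor of the alpha-macroglobulin family, at 46442 and 43283 (log2 ratio -0.10), and Hrg, a plasma glycoprotein that binds plasminogen and heparin, at 21066 and 22386 (log2 ratio 0.09). Fgl1, a secreted relative of fibrinogen, had signals of 21972 and 17444 (log2 ratio -0.33). Proz and Serpina10 encode protein Z and the inhibitor that works with it. By the brightest probe set both had -0.21, while the other probe set of Proz gave -0.04. F8, the cofactor of factor IX, which endothelial cells make, had the highest ratio, 0.51 (signals 372 and 529). By the brightest probe set, markers of liver sinusoidal endothelial cells were higher in 5 of 6, and Pecam1 was lower (-0.24). Their summed signal was 6678 in Flox/Flox against 7869 in L-Lpcat3 KO. Other probe sets above the floor gave 0.001 for Lyve1 and 0.51, 0.04 and -0.12 for Fcgr2b. The part of these markers in the F8 value was not tested. In the vitamin K cycle, the carboxylase Ggcx had a log2 ratio of -0.04, the reductase Vkorc1 of 0.07 and its relative Vkorc1l1 of -0.01, and of 4 measured genes the quinone reductase Nqo1 (signals 216 and 374, log2 ratio 0.79) was past 1.5-fold.

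Adipocyte, neutrophil and lymphocyte markers were near or below the floor or low. Of 5 listed adipocyte markers, Retn passed the floor in 1 pool (82.9 and 23.4), and Adipoq was below it in both (61.8 and 9.21). Platelet and megakaryocyte markers had 3 measured members, all with ratios above 0 (0.13 to 0.33), and neutrophil markers lay near the floor, with a summed signal of 469 in Flox/Flox against 422 in L-Lpcat3 KO. Among the 6 neutrophil markers, Mpo was over 1.5-fold lower (signals 124 and 80.1, log2 ratio -0.63) and Csf3r over 1.5-fold higher (signals 29.7 and 119.7, log2 ratio 0.65 with the Flox/Flox signal raised to the floor). Lymphocyte markers had 1 measured member, Cd8a (-0.33), and 4 of the 5 listed stellate cell markers were measured, with a median of 0.04. RNA integrity, read as the 3' over 5' control signal of Gapdh, was close in the pools, at 0.866 for Flox/Flox against 0.851, and that of Actb was higher but also close, at 2.34 against 2.32.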

How the data were processed

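Liver RNA pooled from 5 mice per genotype was measured on 1 array for Flox/Flox and 1 for L-Lpcat3 KO. For each array the authors deposited 1 linear intensity for every probe set. The submitters' processing notes name MAS5 (version not given in the sources used here), and the methods name GeneSpring GX. The mean without the lowest and highest 2% of signals was 500.0 on both arrays. Genes were named through the platform annotation, with symbols from RefSeq GRCm38.p6; 34945 probe sets had 1 gene, 932 several and 9160 none, and the files name no build. Log2 was taken above a floor at the median signal (76.4), which left 12084 of 18194 genes measured. With 1 array per group no test exists, so genes were counted at 1.5-fold beside all genes and other genes of like signal; the 2 arrays limit the precision. The list, the groups and the rule for naming genes (any listed gene, and from other lists those 1.5-fold apart and the brightest 2) were chosen with earlier results of these data known. Outside that rule, the C1q chains, Fgl1, Proz, Serpina10, F8, Ggcx, Cebpd, Socs3, Il6ra, Il6st and some cell type markers were named after their values were seen. Scripts were tested on simulated data. Alternatives covered scaling, floor, pseudocount, probe set summary and the brightest 1% of probe sets. Python 3.11.15, numpy 2.4.6, pandas 2.3.3, statsmodels 0.14.6 (loess span 0.4) and matplotlib 3.10.9 were used.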

Additional observations from a re-analysis of the deposited data

How the results depend on the processing

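No gene was 1.5-fold apart under 12 of 13 alternatives, of which second brightest probe sets measured 8 genes, the setting without the top 1% 21, and all others 34 to 36. The remaining one, which counts probe sets and was chosen after seeing the data, gave 1 higher (Masp1). Leaving out C2 and F7 was also chosen after seeing the data and left a median of -0.08. C2 stayed between -0.56 and -0.31 and F7 between 0.21 and 0.30. Of the 36 genes, 26 had ratios below 0 and 1 above 0 under every setting that gave them a value, and 9 crossed 0 at least once (C8g, Cfp, F10, Klkb1, Kng1, Masp1, Plg, Serpinc1 and Vtn). Median centring gave medians of -0.16 for the 36 genes, -0.17 for the classical and lectin start, -0.16 for the alternative pathway, -0.16 for the terminal complex, -0.18 for complement inhibitors, -0.11 for the contact system, -0.13 for clotting factors, -0.22 for fibrinogen, -0.24 for anticoagulants and -0.12 for fibrinolysis. Quantile normalization gave -0.035 for complement inhibitors, -0.084 for fibrinogen and 0.014 for fibrinolysis, and the cause was not tested. The alternative pathway, with 2 genes, had 0.0079 by the mean of probe sets, -0.14 with the floor at the 75th percentile (Cfb alone) and 0.33 by second brightest probe sets (Cfp alone). Second brightest probe sets gave -0.31 for the classical and lectin start (3 genes) and -0.12 for fibrinolysis (Vtn alone). Without genes in the top 1% the terminal complex had -0.15 (2 genes), anticoagulants -0.22 (3) and fibrinolysis -0.24 (Serpinf2 alone). A value without a test was taken as moved when it shifted by 0.05 or more. No paired analysis was possible because each group has 1 array and no test was run.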

Other observations

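Among regulators that are known to drive complement and coagulation genes in hepatocytes, the 2 brightest were the nuclear receptor Hnf4a and the acute-phase factor Cebpb. Hnf4a had 18389 in Flox/Flox against 17086 in L-Lpcat3 KO (log2 ratio -0.11), with -0.18 and 0.002 in its other probe sets above the floor. Cebpb had 17247 in Flox/Flox against 16056 in L-Lpcat3 KO (-0.10), with -0.03 in its other probe set. Both genes lay in the top 1%, where the 266 other genes had a median of -0.04. The related factor Cebpd went the other way, with 0.05 and, in its other probe set, 0.53. Of 11 measured hepatocyte transcription factors, 6 had ratios below 0 and 5 above, and the median was -0.02. The dim Onecut1 was past 1.5-fold (247 in Flox/Flox against 433 in L-Lpcat3 KO, 0.81), and its other probe set gave 0.33. It was the 1 factor past that size.

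IL-6 signalling through STAT3 is the route by which inflammation raises fibrinogen and other acute-phase proteins. The list used for it also holds genes of other receptors and routes (Lepr, Osmr, Lifr, Il1r1, Irak1 and Rela). Over the whole list, 15 genes were measured, 8 of them with ratios below 0, and the median was -0.05. None was 1.5-fold lower, and 1, Lepr, was 1.5-fold higher at signals of 105 in Flox/Flox against 187 in L-Lpcat3 KO, with -0.30 in its other measured probe set. Stat3, the transcription factor of this route, had 4189.6 in Flox/Flox against 2933 in L-Lpcat3 KO (-0.51), and its other probe sets above the floor gave -0.21, -0.31 and, at the dimmest signal, 1.01. Its feedback inhibitor Socs3 had 398 in Flox/Flox against 282 in L-Lpcat3 KO (-0.50), with -0.15 and 0.17 in its other probe sets. Lifr, a receptor chain for cytokines other than IL-6, had 11231 in Flox/Flox against 8467 in L-Lpcat3 KO (-0.41). The other probe sets of Lifr gave -0.09 and, at a dim signal, -0.68. The brightest probe set of the receptor chain Il6ra gave -0.07 and its other one 0.36, and those of Il6st above the floor gave -0.14, -0.17 and 0.02. These genes were taken from a list, on which Stat3 and Socs3 had the lowest ratios by the brightest probe set.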
